A study of Mus musculus with 15 samples.

Results

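Interferon-stimulated and antigen presentation genes were followed in mouse pancreatic duct organoids before and after doxycycline. The set is a list of 36 named genes of 34554 genes and added sequences measured, and its members, listed with earlier results of these data known, were matched by symbol. It holds 4 transcription regulators, 4 sensors of foreign nucleic acid, 17 antiviral and related effectors, 6 genes of the ubiquitin, ISG15 and ADP-ribose systems, and 5 genes of class I antigen presentation. In these organoids the mean levels of B2m, H2-K1 and H2-D1 ranked from the 96.1st to the 97.1st percentile of tested features. Isg15, Ifit1, Ifit3 and Rsad2, which interferon induces strongly in most cells, averaged below 1 count per 1000000. After 24 h of doxycycline B2m, Ddx58 and Ifi27 were 1.34-, 1.36- and 1.52-fold higher for the mean of the 5 lines. These folds are from counts not corrected for transcript length. With that correction the 24 h and 0 h levels of Ddx58 overlapped. No member's response passed the test of a difference between genotypes.

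The inducible group comprised organoid lines A217, A220 and A225, which carry every allele needed for doxycycline to switch on synthesis of the glycan CA19-9. The group labelled genetic negative comprised lines A218 and A223, which lack 1 of these alleles. The sources used here do not name the missing allele, the promoter behind the doxycycline-dependent activator or the number of mice behind the lines. All lines came from normal mouse pancreatic ducts, grew in Matrigel, and had their medium renewed 24 h before a common harvest. Doxycycline at 1 µg/ml was present for the last 0, 4 or 24 h, in negative lines too, so that each line gave 3 RNA libraries. There were therefore 3 inducible and 2 negative libraries at each time, 15 in all, and lines served as replicates. The p-values below are set against the spread between lines or, where the line is a block, against the spread left within lines. Without the block the fit treats the 3 libraries of a line as independent, also where genotypes are compared.

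Interferons are secreted when cells sense viral or misplaced nucleic acid. They bind receptors that activate JAK kinases and STAT transcription factors. A complex that holds STAT2 and IRF9 binds the interferon-stimulated response element in promoters of genes that block viral growth, and IRF1 activates class I genes after interferon gamma. Class I molecules, made of a heavy chain and the invariant light chain beta-2-microglobulin, carry peptides to the surface of nearly all cells, ductal epithelium included, where T cells inspect them.

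Library depth ranged from 47915632 to 59411540 estimated counts. EGFP, an added reporter sequence, stood between 270 and 385 counts per 1000000 (CPM, with TMM scaling between libraries) at 24 h in inducible lines and at no more than 0.345 CPM in any negative library. Duct markers summed to between 9722 and 16711 CPM. Markers of leukocytes summed to between 2.84 and 5.26 CPM with Adgre1 at 0, and those of endothelium to between 3.43 and 6.90 CPM. Acinar markers summed to between 0.951 and 1.97 CPM with Ptf1a and Cpa1 at 0, and endocrine markers to at most 0.230 CPM with Ins1, Ins2 and Gcg at 0. The duct sum was higher at 24 h than at 0 h in each genotype, between 13993 and 15620 CPM against 10485 and 12723 CPM in inducible lines, and between 15833 and 16711 CPM against 11412 and 11685 CPM in negative lines. Fibroblast markers summed to 2.249, 2.97 and 3.01 CPM in A225 at 0, 4 and 24 h, and to 2.34 CPM in A223 at 24 h against 0.384 CPM at 0 h, with between 0.265 and 0.790 CPM in the 11 libraries other than these 4. B2m, Ifi27 and Ddx58 kept their 24 h call for the mean of the lines without A225 and without A223, each left out alone with the other kept. The part of these marker sums in the 24 h results below was not tested.

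The stretches of DNA at the starts of 5 members show the interferon-stimulated response element where it was found. All 5 were chosen because they hold a match. B2m, Ddx58, Eif2ak2 and Ifih1 were also called higher at 24 h, and Isg15 has 3 overlapping matches. Of the other members called at 24 h, Ifi35 and Dtx3l had no match in their windows and Ifi27 had no window. Sequences are from RefSeq on build GRCm38.p6, on the strand of the gene, from 200 bases before to 30 bases after its start, or 30 bases around the match for Ifih1. Capitals mark each match to GAAANNGAAA, the core of the interferon-stimulated response element, read on either strand.
B2m (chr2:122147487-122147716, + strand): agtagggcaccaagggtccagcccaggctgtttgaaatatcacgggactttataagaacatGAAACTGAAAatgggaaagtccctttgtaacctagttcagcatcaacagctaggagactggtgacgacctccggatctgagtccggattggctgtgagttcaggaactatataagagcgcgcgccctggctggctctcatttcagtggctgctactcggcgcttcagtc
Ddx58 (chr4:40239796-40240025, - strand): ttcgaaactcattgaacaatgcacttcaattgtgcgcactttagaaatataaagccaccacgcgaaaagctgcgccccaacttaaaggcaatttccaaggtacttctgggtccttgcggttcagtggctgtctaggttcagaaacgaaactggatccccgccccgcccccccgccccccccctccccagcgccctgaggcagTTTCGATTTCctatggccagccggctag
Eif2ak2 (chr17:78882543-78882772, - strand): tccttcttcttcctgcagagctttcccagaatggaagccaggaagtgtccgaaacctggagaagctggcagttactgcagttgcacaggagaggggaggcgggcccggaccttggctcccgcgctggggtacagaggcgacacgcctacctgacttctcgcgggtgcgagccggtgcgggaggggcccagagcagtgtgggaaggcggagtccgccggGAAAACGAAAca
Isg15 (chr4:156200789-156201018, - strand): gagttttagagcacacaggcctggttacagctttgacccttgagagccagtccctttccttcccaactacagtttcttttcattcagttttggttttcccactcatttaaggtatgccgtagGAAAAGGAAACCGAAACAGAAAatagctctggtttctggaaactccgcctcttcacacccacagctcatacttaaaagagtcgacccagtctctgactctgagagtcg
Ifih1 (chr2:62646206-62646235, - strand): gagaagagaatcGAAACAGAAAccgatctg

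In B2m the match ended 129 bases before the start, and the last of the Isg15 matches ended 56 bases before it. In Ddx58, Eif2ak2 and Ifih1 it lay just after the start, and in Ddx58 it was on the other strand. RefSeq gave windows of 250 bases before to 50 after the start for 27 of the 36 members, none of them for Ifi27, Mx1, Mx2, Parp14, Parp9, Rtp4, Tap2, Usp18 and Zbp1. GAAANNGAAA on either strand was present in 12 of these 27 members, which is 44.4%, and in 3.99% of the 27025 genes with a window. TTCNNNGAA, the core of the gamma-activated site, was present in 6 of the 27, which is 22.2%, and in 9.55% of all genes with a window. A match of letters says nothing of binding in these cells.

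Levels of the members differed widely. TPM, a level corrected for transcript length, averaged 319 ± 47.1 for B2m, the light chain of class I molecules, 268 ± 40.4 for H2-K1 and 234 ± 16.7 for H2-D1, both heavy chains (SD, n = 15 libraries). These 3 genes ranked at the 97.1st, 96.5th and 96.1st percentile of the tested features. Together they made up 60.6 to 66.7% of the summed CPM of the members in each library. A middle group held Bst2, a tether of budding virus, at 46.8 ± 4.32 TPM, the RNA-dependent kinase gene Eif2ak2 at 31.5 ± 2.90 TPM, Ifi27 at 30.2 ± 5.60 TPM, Irf1 at 27.1 ± 2.34 TPM and Ifi35 at 23.8 ± 1.80 TPM. H2-K1 and H2-D1 are similar in sequence, so the division of reads between them is uncertain. The same holds for Ifit3 and Ifit3b, and for Oas1a and its neighbour Oas1g.

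**Figure D1:**
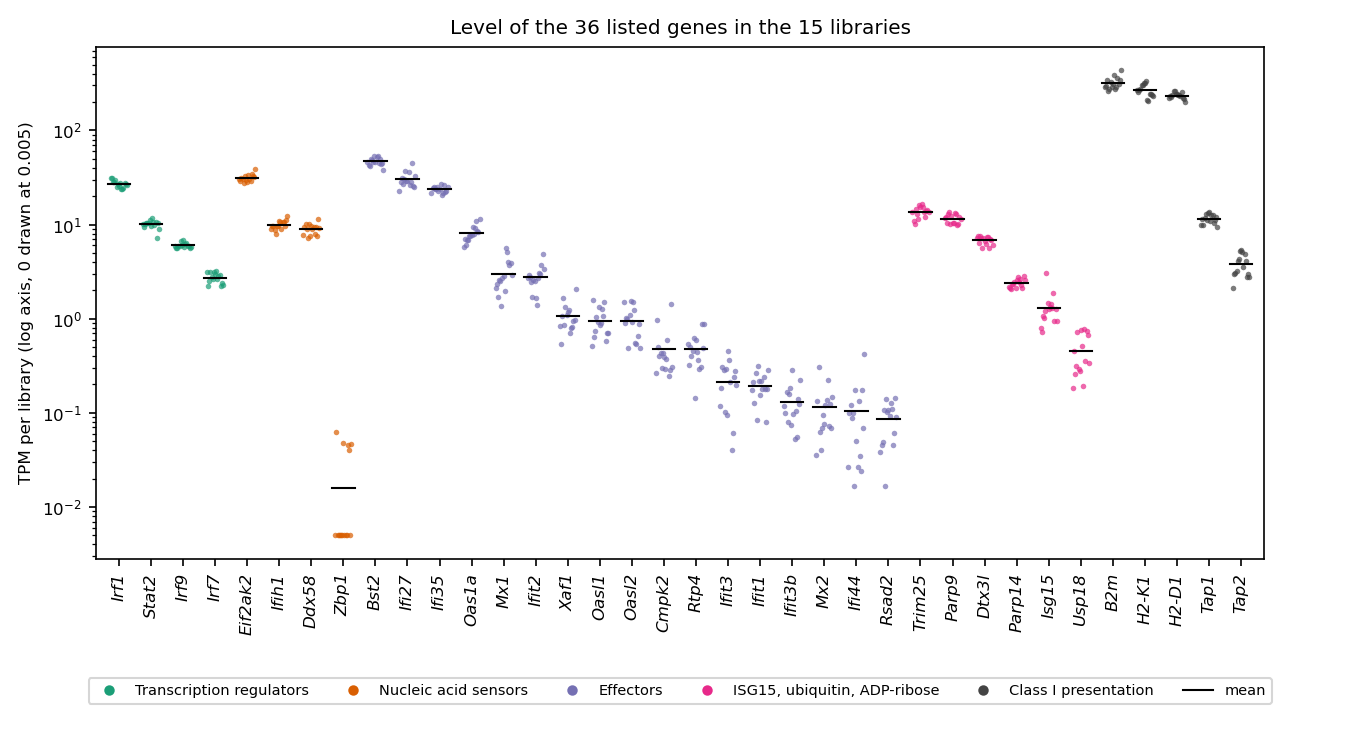
Level of each listed gene in TPM on a log axis, 1 point per library (15 libraries), coloured by role, with the mean as a black bar; a value of 0 is drawn at 0.005. B2m, H2-K1 and H2-D1 stand above 200 TPM in every library, while Ifit1, Ifit3, Mx2, Ifi44, Rsad2 and Zbp1 stay below 0.5 TPM.

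At the other end, 11 of the 36 members averaged below 1 CPM, 9 between 1 and 10 CPM and 16 at least 10 CPM. Isg15, the ubiquitin-like modifier that cells stimulated by interferon make in large amounts, averaged 1.31 ± 0.560 TPM, the 27.8th percentile. Ifit1, which binds viral RNA caps, averaged 0.194 ± 0.0671 TPM, the 9.7th percentile. Rsad2, the antiviral enzyme viperin, averaged 0.0850 ± 0.0396 TPM, and Zbp1, a sensor of left-handed nucleic acid, had no count in 10 of the 15 libraries. Mx2 and Zbp1 did not pass edgeR's filter on low counts, so 34 members were tested. The median of the mean TPM was 4.9 over those 34, against 10.7 over all tested features.

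Few of the listed ligands had counts. Ifna4, Ifna5, Ifne, Ifnl2 and Ifnl3 were at 0 counts in all 15 libraries, where 3 counts, the limit that a count of 0 allows, correspond to between 0.0508 and 0.0630 CPM (counting error only). Ifnb1 and Ifna2 had reads in 1 library each and Ifng in 2, at no more than 0.0569 CPM, and Ifnk reached 0.209 CPM. The receptor genes were expressed, with the chains for type I interferons (Ifnar1, Ifnar2), interferon gamma (Ifngr1, Ifngr2) and interferon lambda (Ifnlr1, Il10rb) at no less than 16.6 CPM in any library. The sources used here do not say whether counting used strand, so where genes overlap on opposite strands their reads may be mixed.

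After 4 h of doxycycline, no member passed edgeR's quasi-likelihood test with Benjamini-Hochberg adjustment over all 16462 tested features (threshold 0.05). The same test called 0.298% of all features in inducible lines, 0.121% in negative lines and 0.917% for the mean of the 5 lines. With the line of each library as a replicate block, it called 3.05%, 2.04% and 8.87% of features. The median log2 change of the 34 members was 0.00 for the mean of the 5 lines, with 17 above 0. At unadjusted p below 0.05, 1 member passed in inducible lines (Ddx58, log2 change 0.25 ± 0.08, SE), 1 in negative lines (Ifit3, -1.89 ± 0.79) and 1 for the mean of the lines (Ddx58, 0.16 ± 0.07), where 7.6%, 6.31% and 12% of all features passed. DESeq2 and limma-voom called none at 4 h. Among the members the blocked fit called 1, Trim25, a ubiquitin ligase that activates the sensor RIG-I, which fell by 0.21 ± 0.04 on the log2 scale for the mean of the 5 lines (edgeR with the block, adjusted p = 0.00894, lower in 5 of 5 lines). In bulk RNA, fewer cells of a type and less RNA per cell cannot be told apart.

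After 24 h of doxycycline, 7 of the 34 tested members passed for the mean of the 5 lines, 6 higher and 1 lower. That is 20.6% of the members, near the 18.8% of all features that passed, of which 10.9% were higher and 7.98% lower. Within genotypes the test called 3 members in inducible lines (Ddx58, B2m and Ifi27), where it called 4.93% of features, and 2 in negative lines (B2m and Ifi27), where it called 3.8%. Leaving out any 0 h or 24 h library of A218 or A223 ended both negative-line calls, and fitting only the 0 h and 24 h inducible libraries ended all 3 inducible-line calls. The median log2 change of the members for the mean of the lines was 0.16, against 0.001 over all features, and 25 of 34 lay above 0, against 50.1% of features. With the line as a replicate block, edgeR called 8 members in inducible lines (24.2% of all features), 10 in negative lines (22.5%) and 15 for the mean of the lines (36.5%). In CPM the 24 h and 0 h levels did not overlap for 6 of the 34 members, 5 higher and 1 lower. The same held for 13.2% of all features. Of the 34 members, 11 were higher and 3 lower in all 5 lines at 24 h. Over all features, 39.9% changed in the same direction in all 5 lines at 24 h and 21.2% at 4 h. The 4 h and 24 h comparisons share the 0 h libraries.

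**Figure D2:**
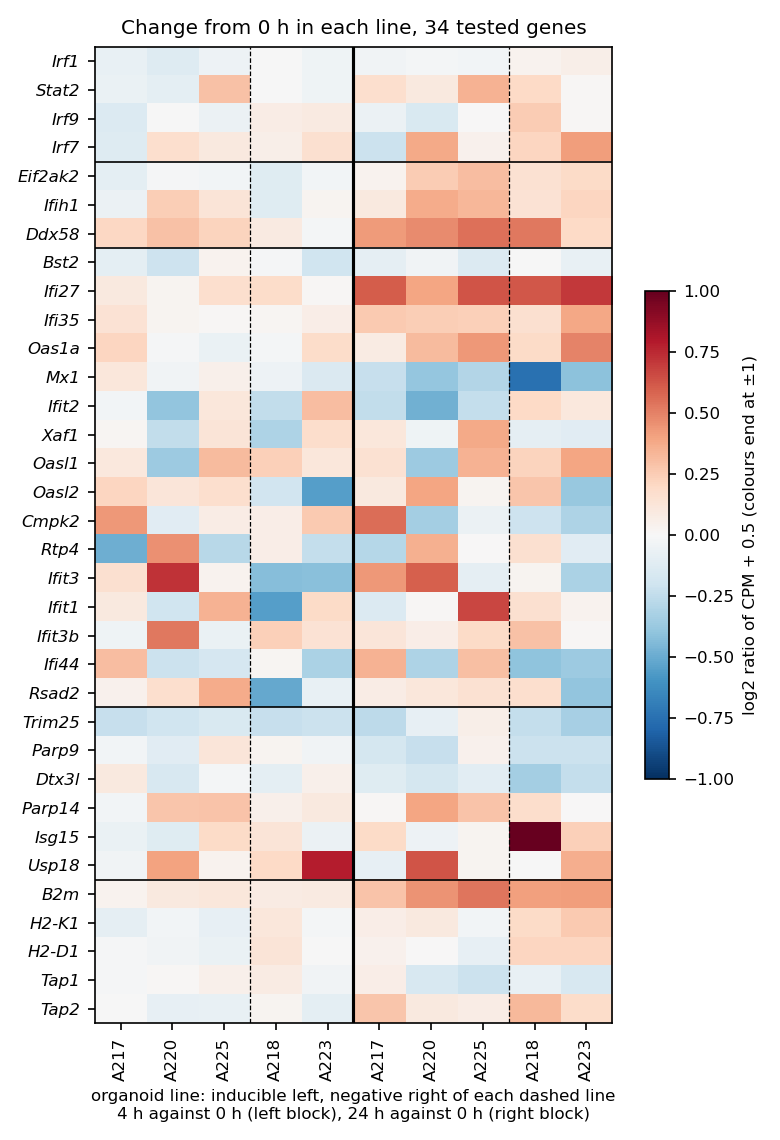
Log2 ratio of CPM + 0.5 against the 0 h library of the same line for the 34 tested members (rows, grouped by role), with 4 h in the left block, 24 h in the right block, and inducible lines left of negative lines in each. B2m, Ifi27, Ddx58, Ifih1, Ifi35 and Eif2ak2 are higher than at 0 h in all 5 lines at 24 h, and Dtx3l, Mx1 and Bst2 are lower in all 5.

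Of the 5 class I genes, B2m was the one that passed without the block for the mean of the lines, where 18.8% of all features passed. B2m (ENSMUSG00000060802.8, GRCm38 chr2:122147686-122153083) stood at 142, 141 and 149 CPM in inducible lines A217, A220 and A225 at 0 h, at 145, 151 and 161 CPM at 4 h and at 173, 193 and 216.6 CPM at 24 h. In negative lines A218 and A223 it stood at 125 and 132 CPM at 0 h, 132 and 141 CPM at 4 h and 167 and 177 CPM at 24 h. Every 24 h library was above every 0 h library, and the 4 h value was higher than the 0 h value in each line. The log2 change at 24 h was 0.43 ± 0.07 in inducible lines (edgeR adjusted p = 0.0067) and 0.42 ± 0.09 in negative lines (edgeR adjusted p = 0.0245), 1.34-fold for the mean of the lines.

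The heavy chains that pair with B2m did not pass without the block. H2-K1 stood at 279, 339 and 234 CPM in the inducible lines at 24 h against 267, 317 and 239 CPM at 0 h, and at 309 and 244 CPM in the negative lines at 24 h against 270 and 203 CPM at 0 h. Its 24 h and 0 h values overlapped, and the change for the mean of the lines was 0.12 ± 0.14 (edgeR adjusted p = 0.604). With the replicate block it was 0.12 ± 0.03 (edgeR adjusted p = 0.0102). H2-D1 stood at 292, 311 and 256 CPM at 24 h against 284, 310 and 271 CPM at 0 h in inducible lines, and at 337 and 331 CPM against 290 and 286 CPM in negative lines. Its change in negative lines, 0.21, passed with the block (edgeR adjusted p = 0.00485) and not without it (edgeR adjusted p = 0.231). The difference of the H2-D1 responses, inducible minus negative, was -0.22 ± 0.13 and did not pass (edgeR adjusted p = 1, with the block 0.514).

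Tap1 and Tap2 form the pump that loads peptides into the endoplasmic reticulum. Tap1 stood between 16.9 and 20.7 CPM at 24 h and between 19.0 and 23.2 CPM at 0 h over the 5 lines, a change of -0.11 ± 0.08 that did not pass (edgeR adjusted p = 0.347). Tap2 was higher at 24 h than at 0 h in 5 of 5 lines, at 4.87, 8.04 and 4.47 CPM against 3.93, 7.47 and 4.23 CPM in inducible lines and 6.39 and 6.49 CPM against 5.01 and 5.67 CPM in negative lines. Its change of 0.20 ± 0.22 passed only with the block (0.21 ± 0.07, edgeR adjusted p = 0.0326; without it 0.583). Of the Tap2 counts, 75.4% were assigned to a transcript with a retained intron and 24.3% to protein-coding transcripts.

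**Figure D3:**
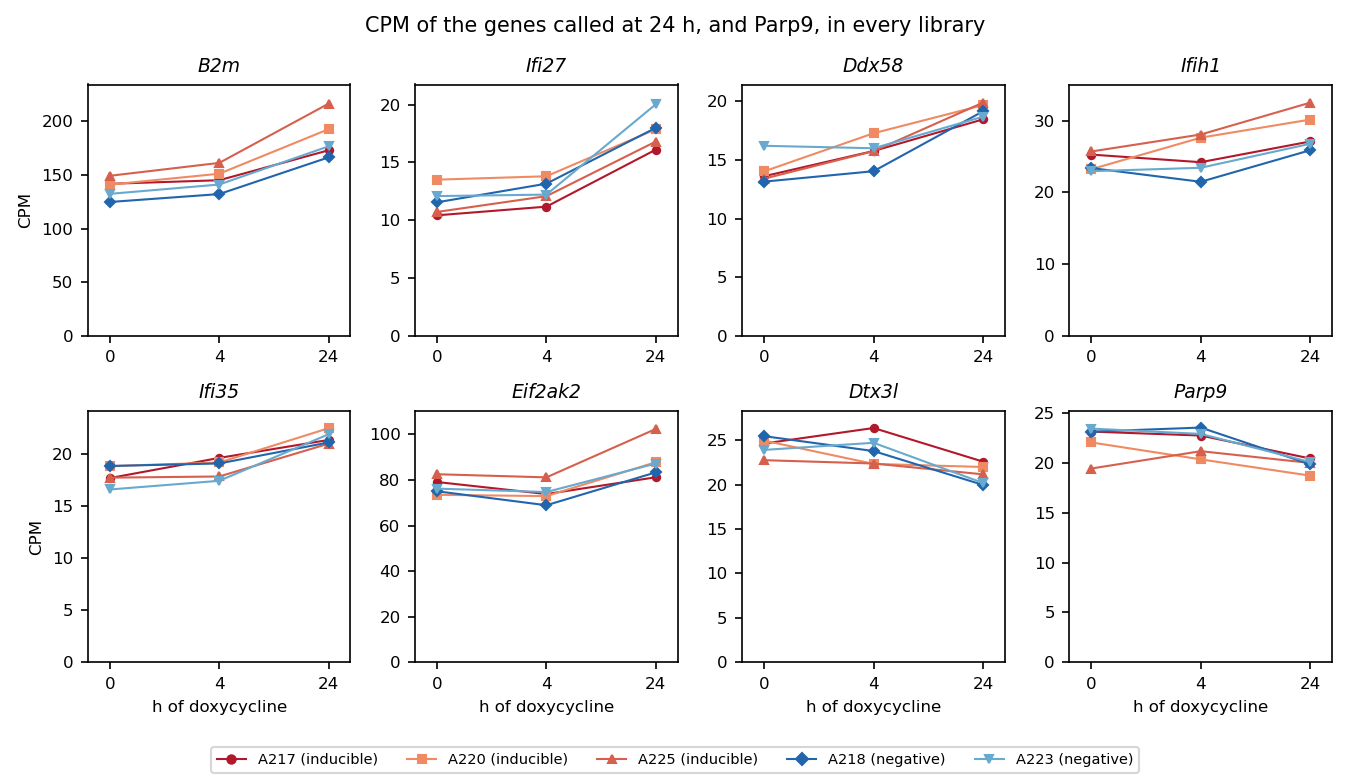
CPM at 0, 4 and 24 h of doxycycline (evenly spaced on the axis) in each of the 5 lines, with inducible lines in reds and negative lines in blues, for the 7 members called at 24 h and for Parp9. For B2m, Ifi27, Ddx58, Ifih1 and Ifi35 every 24 h point lies above every 0 h point, and for Dtx3l every 24 h point lies below.

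All 3 tested sensors were called higher at 24 h for the mean of the lines, where edgeR called 10.9% of all features higher. They belong to the 7 of 34 members called, a share near that of all features. Ddx58 (ENSMUSG00000040296.15, chr4:40203773-40239828), which encodes RIG-I, a detector of viral RNA with triphosphate ends, stood at 13.6, 14 and 13.4 CPM in inducible lines at 0 h, 15.8, 17.3 and 15.8 CPM at 4 h and 18.5, 19.7 and 19.9 CPM at 24 h. In negative lines it stood at 13.2 and 16.2 CPM at 0 h, 14 and 16 CPM at 4 h and 19.1 and 18.7 CPM at 24 h. In CPM the 24 h libraries lay above all 0 h libraries. At 4 h the inducible lines lay above their own 0 h values while line A223 did not. In TPM the 24 h and 0 h values overlapped, with A220 at 8.86 TPM at 24 h and A223 at 9.38 TPM at 0 h. The log2 change at 24 h was 0.50 ± 0.08 in inducible lines (edgeR adjusted p = 0.00707), 0.37 ± 0.10 in negative lines (edgeR adjusted p = 0.0688, with the block 0.00561) and 0.45 ± 0.07 for the mean of the lines (edgeR adjusted p = 0.000916).

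Ifih1 (ENSMUSG00000026896.14, chr2:62595798-62646255) encodes MDA5, a detector of long double-stranded RNA. It stood at 27.1, 30.1 and 32.5 CPM in inducible lines at 24 h against 25.3, 23.2 and 25.7 CPM at 0 h, and at 25.9 and 26.8 CPM in negative lines at 24 h against 23.4 and 22.9 CPM at 0 h. All 24 h values in CPM were above all 0 h values. In TPM they were not, with A217 at 9.58 TPM at 24 h and A220 at 9.59 TPM at 0 h. The change for the mean of the lines was 0.24 ± 0.06 (edgeR adjusted p = 0.0218), and leaving out 1 library ended the call in 8 of 15 cases, with edgeR adjusted p up to 0.0684. Eif2ak2 (ENSMUSG00000024079.4, chr17:78852564-78882573), the kinase PKR that stops translation when it binds double-stranded RNA, stood at 81.2, 87.8 and 102 CPM in inducible lines at 24 h against 79.1, 73.5 and 82.5 CPM at 0 h. In negative lines it stood at 83.4 and 87.2 CPM at 24 h against 75.1 and 76.2 CPM at 0 h. It was higher at 24 h in 5 of 5 lines although the groups overlapped, by 0.19 ± 0.06 (edgeR adjusted p = 0.0406), and leaving out 1 library ended this call in 14 of 15 cases, with edgeR adjusted p up to 0.12.

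Of the 16 tested effectors, edgeR without the block called Ifi27 and Ifi35 higher for the mean of the lines (18.8% of all features called). With the block it called Oas1a higher and Mx1 lower as well (36.5% of all features). Ifi27 (ENSMUSG00000064215.13, chr12:103434211-103440239), a small hydrophobic membrane protein, stood at 10.4, 13.5 and 10.7 CPM in inducible lines at 0 h, 11.2, 13.8 and 12.1 CPM at 4 h and 16.1, 17.9 and 16.8 CPM at 24 h. In negative lines it stood at 11.6 and 12.1 CPM at 0 h, 13.2 and 12.2 CPM at 4 h and 18.0 and 20.0 CPM at 24 h. The 24 h values did not overlap the 0 h values, and the negative lines reached the highest level of any library. The log2 change at 24 h was 0.55 ± 0.11 in inducible lines (edgeR adjusted p = 0.0141) and 0.69 ± 0.13 in negative lines (edgeR adjusted p = 0.0147), 1.52-fold for the mean of the lines.

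Ifi35 (ENSMUSG00000010358.13, chr11:101448407-101458698), a leucine zipper protein that binds other interferon-induced proteins, stood at 21.4, 22.5 and 21 CPM in inducible lines at 24 h against 17.7, 18.9 and 17.8 CPM at 0 h. In negative lines it stood at 21.2 and 21.9 CPM at 24 h against 18.9 and 16.6 CPM at 0 h. The groups did not overlap, and the change was 0.27 ± 0.06 for the mean of the lines (edgeR adjusted p = 0.00658, and 0.0579 without line A223). Oas1a, which makes the second messenger that switches on RNase L, was higher at 24 h in 5 of 5 lines, at 7.49, 11.6 and 13.9 CPM against 7.04, 9.19 and 10.1 CPM in inducible lines and 9.26 and 13.4 CPM against 8.03 and 9.39 CPM in negative lines. Its change of 0.34 ± 0.17 passed only with the block (0.33 ± 0.08, edgeR adjusted p = 0.00604; without it 0.178).

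Mx1, a dynamin-like GTPase that traps influenza virus components, was lower at 24 h in 5 of 5 lines. It stood at 3.48, 3.90 and 5.68 CPM in inducible lines at 24 h against 4.17, 5.24 and 7.08 CPM at 0 h, and at 2.72 and 7.89 CPM in negative lines at 24 h against 4.91 and 10.7 CPM at 0 h. The values of the 2 times overlapped, and the change of -0.42 ± 0.32 passed only with the block (-0.45 ± 0.08, edgeR adjusted p = 0.000689; without it 0.392). Of the Mx1 counts, 98.7% were assigned to a transcript annotated as a target of nonsense-mediated decay and 1.30% to protein-coding transcripts, so these values say little of Mx1 protein.

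The remaining effectors showed no call in any time comparison with or without the block. Bst2, the effector with the highest level, stood between 16.9 and 23.2 CPM at 24 h and between 18.6 and 23.8 CPM at 0 h over the 5 lines, with a change of -0.07 ± 0.09 (edgeR adjusted p = 0.636). Ifit3, the effector with the widest range between lines, stood between 0.0780 and 0.407 CPM at 24 h and between 0.0997 and 0.308 CPM at 0 h. Ifit2 changed by -0.13 ± 0.25, Ifit1 by 0.38 ± 0.37, Ifit3 by 0.42 ± 0.44 and Ifit3b by 0.64 ± 0.44 on the log2 scale, and for none of them did edgeR give an adjusted p below 0.34. Ifit1, Ifit3 and Ifit3b rest on 259, 183 and 130 counts summed over all 15 libraries, and Rsad2 and Ifi44 on 162 and 130. Oasl1, Oasl2 and Xaf1 averaged 1.08, 1.03 and 1.21 CPM, and Cmpk2, a mitochondrial nucleotide kinase, and Rtp4 averaged 0.760 and 0.353 CPM. The changes of these 5 genes lay between -0.11 and 0.18 on the log2 scale. Mx2 averaged 0.101 CPM.

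In the ubiquitin, ISG15 and ADP-ribose group edgeR called 1 gene lower and none higher without the block, and 3 lower and 1 higher with it. For the mean of the lines it called 18.8% of all features without the block and 36.5% with it. Dtx3l (ENSMUSG00000049502.17, chr16:35926511-35939151) and Parp9 (ENSMUSG00000022906.15, chr16:35938470-35972605) encode a ubiquitin ligase and its ADP-ribosyltransferase partner. Dtx3l stood at 22.6, 22 and 21.2 CPM in inducible lines at 24 h against 24.6, 25 and 22.8 CPM at 0 h, and at 20.0 and 20.2 CPM in negative lines at 24 h against 25.5 and 23.9 CPM at 0 h. Its groups did not overlap, and it fell by 0.20 ± 0.06 on the log2 scale for the mean of the lines (edgeR adjusted p = 0.0289), a call that ended in 7 of 15 cases when 1 library was left out, with edgeR adjusted p up to 0.0831. Parp9 stood at 20.5, 18.7 and 20.0 CPM in inducible lines at 24 h against 23.2, 22.1 and 19.4 CPM at 0 h, and at 19.9 and 20.1 CPM in negative lines against 23.1 and 23.5 CPM. Its change of -0.16 ± 0.06 passed with the block (-0.16 ± 0.05, edgeR adjusted p = 0.0126) and not without it (edgeR adjusted p = 0.0617). The genes run in opposite directions and their annotated starts lie 681 bases apart inside each other, a stretch where reads of either may be mixed.

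Trim25 stood at 36.6, 54.7 and 51.5 CPM in inducible lines at 24 h against 44.0, 57.9 and 49.4 CPM at 0 h, and at 40.8 and 42.5 CPM in negative lines against 48.3 and 53.6 CPM. It was lower in 4 of 5 lines, and its change of -0.17 ± 0.11 passed only with the block (-0.17 ± 0.04, edgeR adjusted p = 0.00674; without it 0.344). Parp14, a related ADP-ribosyltransferase, stood at 10.5, 13.5 and 12.4 CPM in inducible lines at 24 h against 10.4, 10.1 and 10.1 CPM at 0 h, and at 12.2 and 11.4 CPM in negative lines against 10.7 and 11.4 CPM. Its change of 0.19 ± 0.08 likewise passed only with the block (0.18 ± 0.06, edgeR adjusted p = 0.0408; without it 0.122). Isg15 stood at 0.462, 0.579 and 0.405 CPM in inducible lines at 24 h against 0.341, 0.618 and 0.386 CPM at 0 h, and at 1.30 and 0.780 CPM in negative lines at 24 h against 0.404 and 0.585 CPM at 0 h. The negative lines at 24 h were above all other libraries. The change in negative lines, 1.07 ± 0.40, had an unadjusted p of 0.0201 and passed with limma-voom (adjusted p = 0.0407) but not with edgeR (adjusted p = 0.152, with the block 0.0685). Its change for the mean of the lines was 0.49 ± 0.26 (edgeR adjusted p = 0.214), and that of Usp18, the protease that removes ISG15, which stood between 0.146 and 0.617 CPM over all libraries, was 0.53 ± 0.38 (edgeR adjusted p = 0.375).

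None of the 4 transcription regulators passed at 24 h without the block. Stat2, a transcription factor of the type I response, stood at 25.2, 25.7 and 20.0 CPM in inducible lines at 24 h against 22.3, 23.9 and 15.6 CPM at 0 h, and at 25 and 23.7 CPM in negative lines against 21.7 and 23.5 CPM. It was higher in 5 of 5 lines, and its change of 0.16 ± 0.11 passed only with the block (0.17 ± 0.06, edgeR adjusted p = 0.0317; without it 0.334). Irf1, the regulator with the highest level, stood between 30.1 and 37.3 CPM at 24 h and between 28.9 and 38.2 CPM at 0 h. It changed by 0.00 ± 0.08, Irf9 by 0.01 ± 0.07 and Irf7, the amplifier of type I interferon production, by 0.21 ± 0.13, with edgeR adjusted p of 0.986, 0.933 and 0.314. Irf7 overlaps Phrf1 on the opposite strand, which stood at 87.4 CPM on average, and reads of the pair may be mixed.

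The genotypes were compared directly, which sets the response of lines with every allele against that to doxycycline in lines that lack 1. EGFP rose in inducible lines only, so an effect of CA19-9 cannot be told apart from one of expressing the added sequences. No member passed edgeR for the difference of the 4 h or the 24 h responses, nor between inducible and negative lines at 0, 4 or 24 h, where edgeR called 0.0121% of all features in each case except 0% at 0 h. The lowest adjusted p of any member in these 5 comparisons was 0.856. DESeq2 and limma-voom called no member in these comparisons. The blocked edgeR fit, which could be made for the differences of responses, called none either (0.0182% of all features at 4 h and 0.0243% at 24 h). At unadjusted p below 0.05, Ifit3 passed for the 4 h difference (2.83 ± 0.97) and Ifi44 for the 24 h difference (2.56 ± 1.14), both genes under 0.5 CPM in every library. Of all features 1.43% and 2.51% passed at that level. Between genotypes 0 members passed at that level at 0 h, 3 at 4 h and 4 at 24 h, against 3.58%, 3.34% and 5.75% of all features.

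For the 16 members with a mean of at least 10 CPM the differences of the 24 h responses ranged from -0.22 to 0.21 on the log2 scale, with standard errors between 0.11 and 0.29. At 4 h they ranged from -0.12 to 0.22. For B2m the difference at 24 h was 0.01 ± 0.11, for Ddx58 0.13 ± 0.13, for Ifi27 -0.13 ± 0.17 and for Ifi35 -0.02 ± 0.11. The summed sensors stood at 140 ± 14.1 CPM in inducible lines (SD, n = 3) and 131 ± 3.07 CPM in negative lines (n = 2) at 24 h, and the summed class I genes at 789 ± 74.0 CPM in inducible lines and 809 ± 42.6 CPM in negative lines.

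The lines themselves differed. After group means were removed, a median of 59.1% of a member's variance lay between lines, against 60.2% for all tested features. Some share falls between lines even without a real line difference, so these shares are not all such a difference. Of the 25 members with a mean of at least 1 CPM, 13 were highest in A220 and 9 lowest in A225, both inducible lines. Mx1 averaged 9.41 CPM over the 3 times in A223 and 4.07 CPM in A217, 2.31-fold apart, and its lowest value in A223, 7.89 CPM, was above the highest value of any other line, 7.35 CPM. Tap2 averaged 7.52 CPM in A220 and 4.23 CPM in A225, and H2-K1 averaged 322 CPM in A220 and 216 CPM in A223. Irf1 averaged 37.3 CPM in A217 and 29.0 CPM in A223, and Ifit2 averaged 8.60 CPM in A225 and 4.25 CPM in A220.

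**Figure D4:**
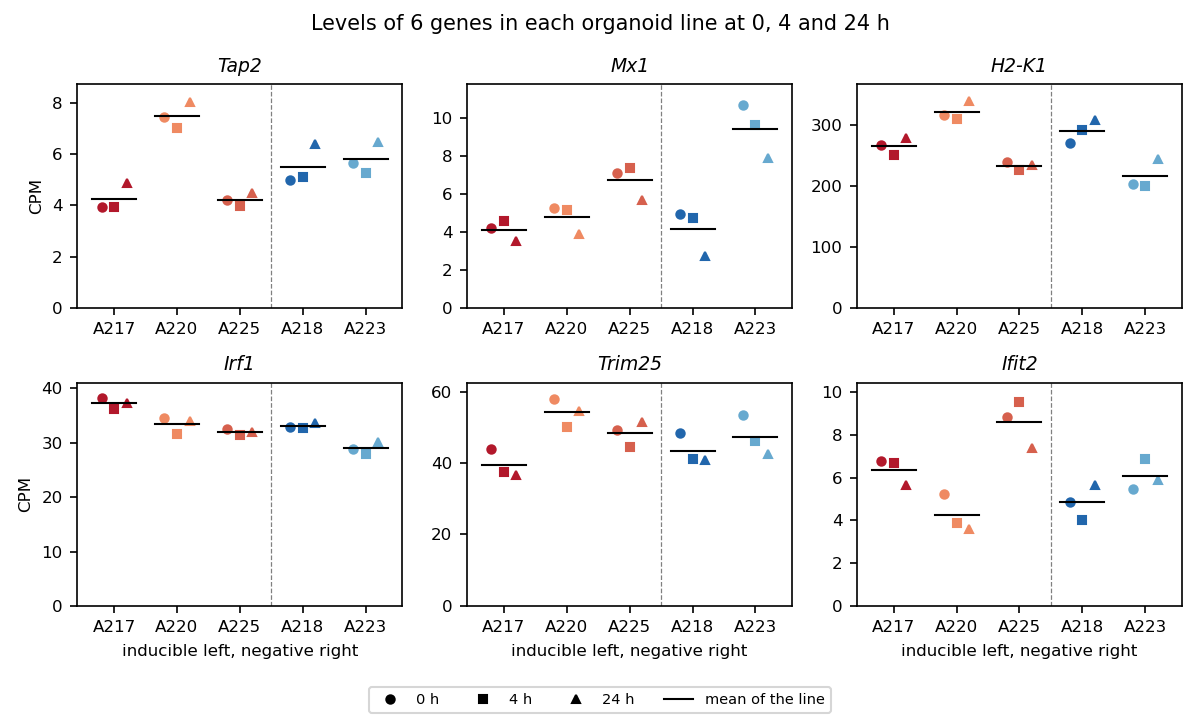
CPM of 6 members in each organoid line, chosen after their values were seen, with 0, 4 and 24 h as circles, squares and triangles, the mean of the line as a bar, and inducible lines left of negative lines. For Mx1, A223 stands above all other lines at every time, while the values of A217, A218 and A220 overlap.

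The other genes of the pathway were taken from lists that hold none of the 36 members, and the counts below are from edgeR without the block for the mean of the 5 lines. Of the 6 receptor chains tested, 4 passed for the mean of the lines, all higher, and 2, Ifngr1 and Il10rb, also passed at 4 h. Ifngr1, the ligand-binding chain of the interferon gamma receptor, stood at 190, 190 and 195 CPM in inducible lines at 0 h, 277, 303 and 333 CPM at 4 h and 342, 393 and 440 CPM at 24 h. In negative lines it stood at 172 and 176 CPM at 0 h, 291 and 285 CPM at 4 h and 381 and 414 CPM at 24 h. The 3 times did not overlap in either genotype, and the 24 h level was 2.14-fold that at 0 h. The log2 change for the mean of the lines was 0.69 ± 0.07 at 4 h (edgeR adjusted p = 0.000135) and 1.10 ± 0.07 at 24 h (edgeR adjusted p = 7.19e-07), and the difference of the 24 h responses, inducible minus negative, was -0.16 ± 0.13 (edgeR adjusted p = 1). Ifngr2, its signalling chain, rose by 0.30 ± 0.05 at 24 h (edgeR adjusted p = 0.00219), Il10rb by 0.19 ± 0.04 (0.21 ± 0.04 at 4 h) and Ifnar1 by 0.16 ± 0.04. Leaving out 1 library ended the 4 h call of Il10rb in 7 of 15 cases and the 24 h call of Ifnar1 in 8.

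Of 24 signalling genes 6 passed higher and 1 lower at 24 h. Jak1, the kinase shared by these receptors, rose by 0.21 ± 0.03 (edgeR adjusted p = 0.00165) and Stat3 by 0.22 ± 0.05, while Cgas, the sensor of cytosolic DNA, fell by 0.49 ± 0.09 (edgeR adjusted p = 0.00379). Of 38 further interferon-stimulated genes tested, 7 passed higher and 1 lower, with a median change of 0.14. Isg20, an exonuclease, rose by 0.64 ± 0.10, Uba7, the enzyme that activates ISG15, by 0.60 ± 0.09, Tdrd7 by 0.40 ± 0.05 and Parp12 by 0.31 ± 0.05, each with an edgeR adjusted p below 0.0015. Of 15 other class I processing genes 3 passed higher and 1 lower. Tapbp, the chaperone that bridges TAP and class I chains, rose by 0.43 ± 0.07 and the proteasome activators Psme2 and Psme1 by 0.26 ± 0.04 and 0.19 ± 0.04, while H2-Q7, a nonclassical class I chain, fell by 0.71 ± 0.12 (edgeR adjusted p = 0.00191). Of 7 class II genes 3 were tested and none passed, with H2-Aa at 0 in all but 1 library and Cd74 at no more than 0.600 CPM.

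**Figure D5:**
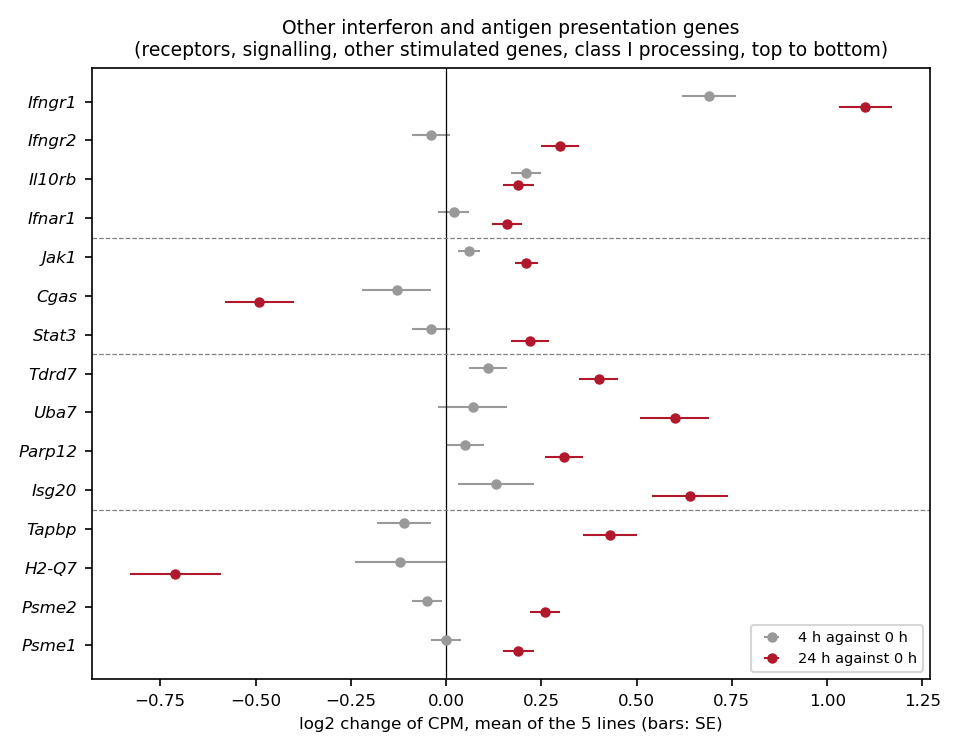
Log2 change of CPM for the mean of the 5 lines at 4 h (grey) and 24 h (red) against 0 h, with standard errors, for 15 genes of the receptor, signalling, other interferon-stimulated and class I processing lists named by rule. Ifngr1 is at 0.69 at 4 h and 1.10 at 24 h, and Cgas and H2-Q7 are below 0 at 24 h.

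Shares of these lists are set against all features. For the mean of the lines at 24 h, edgeR passed 4 of 6 receptor chains, 29.2% of signalling genes, 21.1% of the further interferon-stimulated genes and 26.7% of the class I processing genes, against 18.8% of all features. Csf1r, a receptor listed among the leukocyte markers, rose by 1.36 ± 0.32 at 24 h (edgeR adjusted p = 0.0122), between 1.46 and 3.84 CPM at 24 h against 0.501 and 1.58 CPM at 0 h. The summed leukocyte markers stood between 3.29 and 5.26 CPM at 24 h against 3.37 and 3.62 CPM at 0 h in inducible lines, and between 3.90 and 4.03 CPM against 2.84 and 3.68 CPM in negative lines. Their part in these results was not tested.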

How the data were processed

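RNA of 15 libraries was depleted of ribosomal RNA and sequenced in pairs, per the labels' protocols. The submitters' processing notes name kallisto 0.43.1, GRCm38, DESeq2 1.18.1 and DESeq. Per the file headers, each deposited file lists transcripts with their length, effective length, estimated count (unnormalised) and TPM. The sources used here do not give the authors' annotation release.

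Estimated counts of the authors' files were summed per gene with GENCODE M21 and rounded to whole numbers. The 1295 transcripts without a match held 0.56 to 0.59% of a library's counts and were left out. Deposited TPM values were summed per gene for levels. edgeR 4.0.16 (R 4.3.3) with TMM scaling (factors 0.966 to 1.023), its default filter and 6 group means was fitted to all 15 libraries. P-values were adjusted over 16462 features, with a threshold of 0.05. Standard errors follow from the log2 change and its F statistic. The test was checked on simulated counts with known changes, larger than those of the members edgeR called and without line effects. That check does not cover the smaller changes reported here. Depth per library (in the results) leaves genes under 1 CPM with few counts.

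The lines were sampled at all times, so lines pair the libraries. Libraries of a line deviated together from group means (correlation 0.348 to 0.452 over 9 inducible pairs, 0.212 to 0.26 in negative lines). With 2 negative lines the deviations mirror each other, so both lines give the same correlations by construction. Alternatives were the line as a block, limma-voom 3.58.1 with a random block, DESeq2 1.42.0, other scaling, filters and an effective length offset. Others were sums of similar genes, fewer groups in the fit, left-out libraries and lines, and, added after seeing the data, protein-coding transcripts only. The 12 pairs of libraries within groups differed by more than sampling noise (chi-square over its degrees of freedom, 14.77 to 43.22).

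Members and lists were chosen with earlier results of these data known. All 36 members are accounted for: values by library are given for members called in any comparison, ranges for the highest member of each role and for those that differ most between lines, and up to 4 called genes per other list by smallest p. Some named items are not reported here. GRCm38 coordinates are GENCODE's.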

Additional observations from a re-analysis of the deposited data

How the results depend on the processing

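Counts of members called at 24 h moved with the model. In inducible lines edgeR called 3. The count was 8 under a replicate block for line, 6 with limma-voom and a random block, 5 with DESeq2, 1 with the effective length offset and 0 with only the 2 groups compared in the fit (where 65 of 14995 features were called). Leaving out 1 library or line gave 1 to 6. In negative lines edgeR called 2, against 10 with the block, 8 with limma-voom and 4 with DESeq2, and 0 to 3 with a library or line left out. It called 0 whenever a 0 h or 24 h library of A218 or A223 was left out. For the mean of the 5 lines it called 7 at 24 h, against 15 with the block and 3 to 9 with a library or line left out, and 0 at 4 h, against 1 with the block. B2m, Ifi27 and Ddx58 kept this call at 24 h in all 15 library and all 5 line omissions, and Ifi35 lost it only without A223. Counts for the other 7 comparisons were 0 under every alternative run. The block changed no call of a difference of responses. Each line has 1 genotype, so comparing genotypes within a time left no room for a fixed block. With protein-coding transcripts only, Oasl2 in negative lines reversed to 4.57 at 24 h, since its coding counts at 0 h were close to 0 in A218 and 0 in A223. Members under 1 CPM are limited by depth, and 2 negative lines limit every statement on genotype.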
